A study of Homo sapiens and Mus musculus with 100 samples.

Results

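RNA of mouse hepatocytes carrying the AhR-flox allele and given Ad-Cre was compared across all genes between cells deprived of vitamin B2 (labelled B2_minus) and control cells. This comparison was defined by the labels alone and rests on 6 of the 100 libraries of the series, 3 from B2_minus cells and 3 from control cells. AhR-flox hepatocytes given Ad-Cont, again as 3 B2_minus and 3 control libraries, entered the model. They are set beside the Ad-Cre values where the size of an effect is at issue. All other libraries of the series, from mouse liver and human cell lines, were not used here. All 4 groups carry the AhR-flox genotype, meaning that the controls do so too, and all 12 libraries bear a 4_weeks label. The labels leave several things unstated: what the 4 weeks refer to, the virus dose, the deleted exon, the age and sex of the mice, and whether replicates came from separate animals. Nor do the sample titles say how vitamin B2 was withheld. Control medium and deprived medium are used below only as names for the control and B2_minus groups. The p-values therefore reflect only how much these samples vary, and part of that may be technical.

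Vitamin B2 (riboflavin) is phosphorylated by riboflavin kinase to FMN and then adenylated by FAD synthase to FAD, the cofactors of several families of liver oxidoreductases. AhR, the aryl hydrocarbon receptor encoded by Ahr, is a ligand-activated transcription factor that pairs with ARNT and induces genes of drug oxidation and conjugation. Cre recombinase cuts out the DNA between loxP sites, so an Ahr allele flanked by them (flox) can be removed in cells that receive Cre. Hepatocytes make most plasma proteins and apolipoproteins and carry out oxidation, glucuronidation and glutathione conjugation of foreign compounds. No mouse sequence of these genes was used here.

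Expression is given in TPM, a level scaled by transcript length and library size. The libraries were made with a 3′ mRNA kit, whose reads gather at transcript ends, so levels were compared between samples of 1 gene and not between genes. The 6 Ad-Cre libraries held between 6263500 and 6851300 reads, as recovered from the TPM values and rounded to the nearest 100. Within groups, pairs of libraries differed by 2.38 to 4.39 times sampling noise (mean chi-square per gene), except that deprived Ad-Cont replicate 1 differed from its partners by 6.44 and 9.30, and control Ad-Cre replicate 3 was the farthest in its group. Every library expressed hepatocyte markers. Over 14 such markers the summed level was 9319 to 9673 TPM in the control and 9889.8 to 10302 TPM in the deprived Ad-Cre libraries. Markers of other liver cells were read as well, with 14 Kupffer cell and macrophage markers summing to 204 to 213 TPM in control and 189 to 219 TPM in deprived cells. Cholangiocyte and progenitor markers summed to 1207 to 1414 TPM in control and 959.7 to 1069 TPM in deprived cells. Markers of lymphocytes and neutrophils summed to at most 2.54 TPM in the Ad-Cre libraries, and 6 of the 14 were listed at 0 in all of them.

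Ahr itself was read in every library. The Ahr entry spans chromosome 12 from 35497979 to 35534989 in the coordinates of the deposited table, and mm10 is the mouse build that the submitters' processing notes name. With Ad-Cre the Ahr level was 7.13, 8.29 and 7.94 TPM in the control and 6.78, 6.99 and 7.52 TPM in the deprived libraries, against 10.0, 9.58 and 9.32 and 10.7, 10.1 and 9.89 TPM with Ad-Cont. Every Ad-Cre library was thus below every Ad-Cont library. The log2 difference between Ad-Cre and Ad-Cont was -0.28 ± 0.09 (SE) in control medium, with an adjusted p of 0.494, and -0.47 ± 0.09 in deprived medium, with an adjusted p of 0.0225. Over all genes those contrasts called 3 genes (0.0247%) and 125 genes (1.03%). The deprived-medium difference kept its direction but missed the threshold in 5 of the 6 fits that left out 1 library, with adjusted p from 0.0526 to 0.0867. Reads at the 3′ end can lie outside the deleted part of a floxed gene, so the remaining Ahr signal does not measure how completely the allele was removed. Deprivation left the Ahr level with Ad-Cre at a log2 difference of -0.12 ± 0.09, with an adjusted p of 0.734.

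Deprivation with Ad-Cre moved a small set of genes. Among the 12155 genes with at least 1 TPM in at least 3 of the 12 libraries, 26 were higher (0.214%) and 14 were lower (0.115%) in deprived than in control cells. Together these 40 genes are 0.329% of those tested, by limma on log2(TPM + 1) with Benjamini-Hochberg adjustment and a threshold of 0.05. Since 8 of the higher entries are from the Ugt1a locus and share reads, the 40 stand for 33 loci, 19 higher (57.6%) and 14 lower. The higher set included the carboxylesterase Ces1c, hepatic lipase Lipc, apolipoproteins Apoa4 and Apoc3, the Ugt1a locus, Gstm3, Adh1 and coagulation factor F10. The lower set held genes of DNA replication and mitosis, such as Top2a, Mcm7, Prc1, Aurka and Cdca3, and the secreted proteins Wfdc2 and Dcn. The changes were modest: 6 of the 40 exceeded 1 on the log2 scale, and a fold change on the log2(TPM + 1) scale understates that of genes with low levels. The median log2 fold change over all genes tested was -0.01.

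The control and deprived libraries did not overlap for any of the 40 genes, where 2059 of the genes tested (16.9%) showed no overlap. At an unadjusted p under 0.05, 549 genes were higher and 678 lower, which is 4.52% and 5.58% of those tested. These shares are the background for the counts of the Ad-Cre comparison on that measure, and not for those of the difference between viruses. A test on the recovered reads (voom) called 54 higher and 58 lower genes, 33 of them among the 40. By that test 48.2% of the calls were in the higher direction, against 65% by limma on TPM. Each library mattered at this sample size. Leaving out control replicate 1, 2 or 3 kept 23, 17 and 28 of the 40 calls, and leaving out deprived replicate 1, 2 or 3 kept 16, 23 and 21. Without those libraries in turn, the number of higher genes was 19, 15, 23, 13, 17 and 15, and that of lower genes was 9, 4, 10, 3, 7 and 7. There were 14 entries that kept their call in each of 13 other fits on the same genes, 7 with another setting and 6 without 1 library: Ces1c, Lipc, Apoa4, Gstm3, Adh1, Wfdc2 and the 8 entries of the Ugt1a locus.

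**Figure D1:**
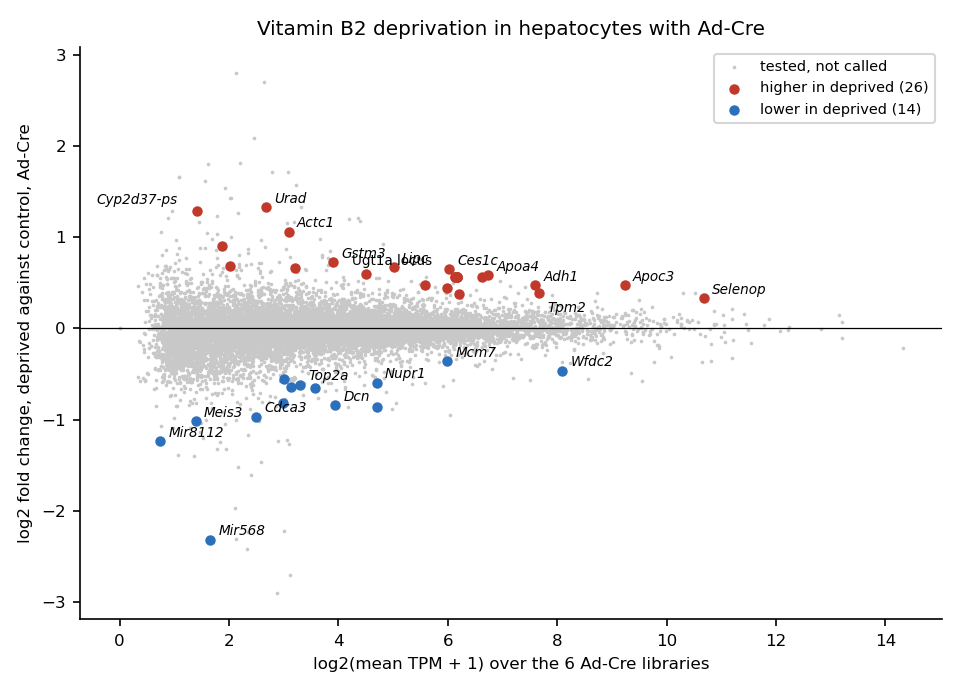
Each point is 1 of the 12155 genes tested, with its level on the x axis (log2 of the mean TPM plus 1 over the 6 Ad-Cre libraries) and its log2 fold change on the y axis. The 26 genes called higher are red and the 14 called lower are blue. Uncalled genes with wide changes sit mostly at low levels on the left, and the called genes at high levels, such as Selenop, have small changes.

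Genes of conjugation and detoxification were among the higher ones. The Ugt1a locus encodes UDP-glucuronosyltransferases, which attach glucuronic acid to bilirubin and to drugs. Its 8 called entries lie on chromosome 1 between 88055411 and 88220002, and 7 of them end at the same base. The first exon differs between them and the last exons are shared, so 3′ reads cannot tell them apart and they count as 1 measurement. The Ugt1a6b entry stood at 81.1, 82.7 and 72.7 TPM in the control libraries and 124, 109 and 118 TPM in the deprived libraries. All deprived libraries were above all controls, with a log2 fold change of 0.56 ± 0.06 (SE) and an adjusted p of 0.000733. The other 7 entries had log2 fold changes of 0.56 as well. Ugt2b5, a glucuronosyltransferase of another subfamily, was at 63.6, 62.8 and 64.3 TPM in control and 82.1, 81.6 and 83.9 TPM in deprived cells. Its log2 fold change was 0.37 ± 0.07 (adjusted p 0.0377), and the call was lost without any 1 of the 6 libraries, with adjusted p up to 0.169.

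Gstm3, a mu-class glutathione transferase, rose from 9.86, 9.57 and 11.6 TPM in control to 15.8, 19.1 and 18.2 TPM in deprived cells. The groups were well apart, at a log2 fold change of 0.72 ± 0.11 and an adjusted p of 0.00668. It was the only called member of the 21 glutathione transferases and related enzymes tested, 11 of which were higher and 1 lower at an unadjusted p under 0.05. The voom test called 5 of them higher. The median log2 fold change of that list was 0.16, beside -0.01 over all genes. Ces1c, a carboxylesterase secreted into plasma, rose from 45.3, 51.8 and 51.9 TPM to 75.7, 75.2 and 83.9 TPM. Its log2 fold change of 0.65 ± 0.08 had an adjusted p of 0.000733. Adh1, the main hepatic alcohol dehydrogenase, stood at 156, 156 and 171 TPM in control and 216, 222 and 233 TPM in deprived libraries, a log2 fold change of 0.47 ± 0.07 (adjusted p 0.00559). Those 3 genes kept their calls in all 13 of the other fits.

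Cytochrome P450 genes had no called coding member. Of 15 tested in the list of drug-metabolising P450s and their regulators, 0 passed, 7 were higher and 2 lower at an unadjusted p under 0.05, and voom called 1 higher. The list's median log2 fold change was 0.30. The 2 members with the highest mean TPM were Por, the FAD- and FMN-containing P450 reductase, with a log2 difference of -0.07 ± 0.06 (adjusted p 0.734), and Cyp2d10, with 0.32 ± 0.12 (adjusted p 0.338). Cyp3a11, the member that voom called and so picked after its values were seen, was at 3.18, 3.22 and 3.69 TPM in control and 8.99, 5.41 and 7.18 TPM in deprived cells, a log2 difference of 0.89 ± 0.19 (adjusted p 0.0807). Outside that list the P450 pseudogene Cyp2d37-ps passed, at 0.525, 0.517 and 0.536 TPM in control and 3.50, 1.96 and 2.90 TPM in deprived cells. These levels rest on 2 reads in each control library and on 13, 7 and 11 reads in the deprived ones. Its near-identical Cyp2d relatives make the assignment of those reads uncertain, voom did not call it, and the call was lost without control replicate 2 or deprived replicate 1 or 3 (adjusted p up to 0.0754). Of the 29 NRF2 target genes tested, Gstm3 was the only one called, 8 were higher and 1 lower at an unadjusted p under 0.05, and voom called 5 higher.

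Some lipoprotein genes rose. Of the 19 members tested of the apolipoprotein and lipoprotein assembly list, 3 were higher and 0 lower, 5 higher and 2 lower at an unadjusted p under 0.05, and the list's median log2 fold change was 0.14. Apoa4, an apolipoprotein of chylomicrons and high-density lipoprotein, went from 90.2, 84.5 and 80.1 TPM to 132, 125 and 126 TPM. The log2 fold change was 0.58 ± 0.07 with an adjusted p of 0.000733. Apoc3, which restrains lipoprotein lipase, went from 476, 470.3 and 566 TPM to 719.8, 659 and 723 TPM, a log2 fold change of 0.48 ± 0.08 (adjusted p 0.0226). Lipc, the hepatic lipase that hydrolyses lipoprotein triglycerides and phospholipids, went from 25.4, 23.5 and 22.5 TPM to 38.5, 37.2 and 40.0 TPM, a log2 fold change of 0.67 ± 0.09 (adjusted p 0.0028). In all 3 genes the lowest deprived library lay above the highest control. The Apoc3 call needed both of control replicates 1 and 2 and both of deprived replicates 1 and 3, with adjusted p up to 0.145, whereas those of Apoa4 and Lipc were kept in every fit. The 2 members lower at an unadjusted p under 0.05 did not pass: Apoc2 at -0.39 ± 0.14 (adjusted p 0.317) and Apob at -0.23 ± 0.10 (adjusted p 0.454), picked after their values were seen.

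Fatty acid genes gave no call. PPARA targets had 0 called members of 24 tested, 7 higher and 0 lower at an unadjusted p under 0.05, a median of 0.12, and 1 member called higher by voom. That 1 was Fabp1, the liver fatty acid binding protein, at 27.7, 31.4 and 38.2 TPM in control and 60.7, 47.3 and 58.2 TPM in deprived cells, a log2 difference of 0.76 ± 0.15 (adjusted p 0.0667). The 2 members with the highest mean TPM were Plin2, a lipid droplet coat protein, with a log2 difference of -0.10 ± 0.05 (adjusted p 0.505), and Acaa2, a mitochondrial thiolase, with 0.22 ± 0.06 (adjusted p 0.203). Lists of cholesterol synthesis (24 tested) and of fatty acid and triglyceride synthesis (21 tested) had 0 called members each. At an unadjusted p under 0.05 the first had 0 higher and 1 lower, and the second had 1 higher and 0 lower. Voom called 0 and 1 of them.

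Plasma protein genes gave 1 call in 29 tested carriers, protease inhibitors and clotting factors. F10, coagulation factor X, rose from 16.4, 15.8 and 19.4 TPM to 27.1, 25.3 and 27.0 TPM, a log2 fold change of 0.60 ± 0.10 (adjusted p 0.0226). The call was lost in 5 of the 6 fits without 1 library, with adjusted p up to 0.145, the exception being control replicate 3. A further 8 members were higher and 0 lower at an unadjusted p under 0.05, among them Alb, albumin, with 1938, 2061 and 1949 TPM in control and 2125, 2232 and 2232 TPM in deprived cells. Its log2 difference of 0.15 ± 0.05 had an adjusted p of 0.29. Selenop, the selenium carrier of plasma and no member of that list, rose from 1429, 1458 and 1475 TPM to 1842, 1787 and 1867 TPM. The log2 fold change of 0.33 ± 0.05 was the smallest among the called genes, with an adjusted p of 0.0068, and the 2 groups were far apart relative to their spread. That call was lost without deprived replicate 1 or 3, with adjusted p up to 0.0579.

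The remaining higher genes share no list. Urad, an enzyme of uric acid breakdown, had the highest log2 fold change, 1.33 ± 0.20 (adjusted p 0.0068). Its level was 2.07, 3.17 and 2.58 TPM in control and 8.96, 6.13 and 9.25 TPM in deprived libraries. Actc1, cardiac alpha-actin, was at 6.53, 3.81 and 3.46 TPM against 11.6, 8.51 and 11.2 TPM, a log2 fold change of 1.06 ± 0.20 (adjusted p 0.0447). Tpm2, beta-tropomyosin of actin filaments, was at 189, 170.4 and 169.9 TPM against 221, 241 and 231 TPM, a log2 fold change of 0.39 ± 0.07 (adjusted p 0.0221). Reep6, a membrane-shaping protein of the endoplasmic reticulum, rose by 0.48 ± 0.08 on the log2 scale (adjusted p 0.0129), and Ap5s1, a subunit of the adaptor complex AP-5, by 0.67 ± 0.12 (adjusted p 0.0298). Rex1bd (0.45 ± 0.09, adjusted p 0.0431), Gm10030 (0.69 ± 0.13, adjusted p 0.0447) and 1700012D01Rik (0.90 ± 0.18, adjusted p 0.0462) complete the set. Of these 8 genes, Urad lost its call without deprived replicate 1 or 3, and each of the others lost it in at least 5 of the 6 fits without 1 library, with adjusted p up to 0.215. Rex1bd also lost it under 3 of the 7 other settings, as did 1700012D01Rik. The 1700012D01Rik level rests on 5, 6 and 7 reads in the control and 16, 16 and 11 reads in the deprived libraries. Voom did not call it (adjusted p 0.313). Gm10030 overlaps Rtp3, and Reep6 overlaps Bc1, in each pair on the opposite strand. The reads of each pair cannot be told apart unless the counting used strand, which is not given in the sources used here.

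**Figure D2:**
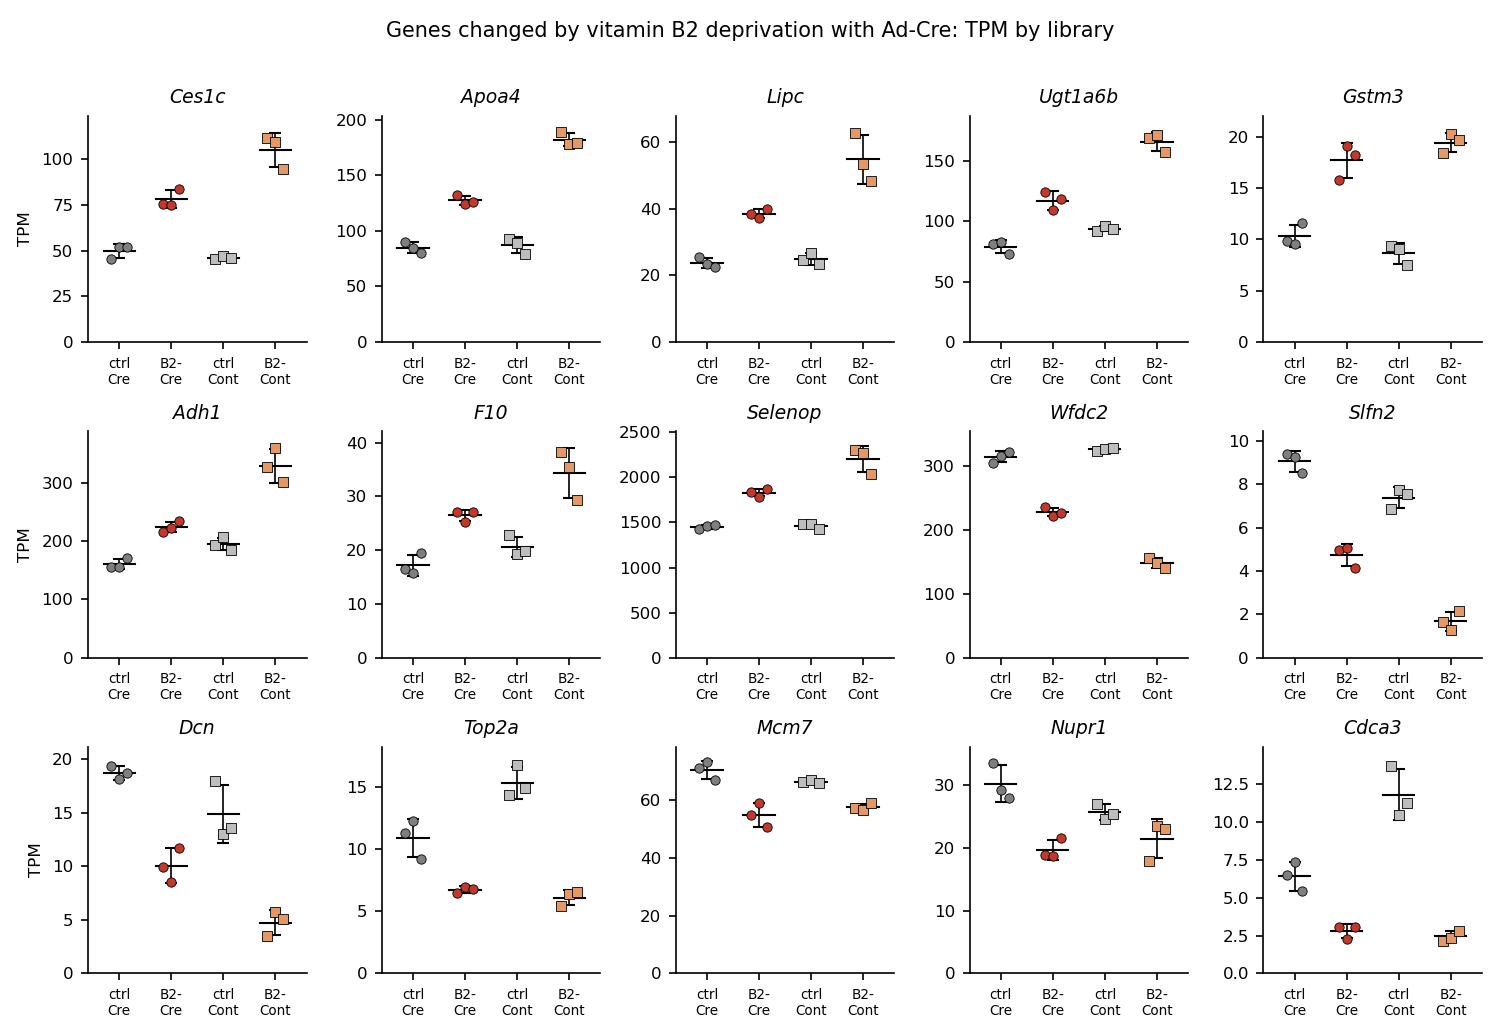
Each panel shows 1 gene called with Ad-Cre, with TPM on the y axis (from 0) and 4 groups on the x axis (ctrl, control medium; B2-, deprived medium; Cre, Ad-Cre; Cont, Ad-Cont). Points are single libraries, the wide bar is the mean of 3 and the whiskers are 1 SD. In each panel the red deprived points and the grey control points of the Ad-Cre pair do not overlap, and for Ces1c, Apoa4, Lipc and Wfdc2 the Ad-Cont pair is farther apart.

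Some genes of DNA replication and mitosis fell. Of the 25 cell cycle genes tested, 3 were called lower and 0 higher. A total of 16 were lower and 0 higher at an unadjusted p under 0.05, 22 had a negative sign, and the list's median log2 fold change was -0.36. Top2a, the topoisomerase that untangles replicated chromosomes, fell from 11.2, 12.2 and 9.20 TPM to 6.42, 6.96 and 6.74 TPM, a log2 fold change of -0.62 ± 0.11 (adjusted p 0.0298). Aurka, a kinase of spindle poles, fell from 9.46, 8.18 and 8.11 TPM to 4.85, 5.99 and 5.74 TPM, a log2 fold change of -0.56 ± 0.11 (adjusted p 0.0467). Mcm7, a subunit of the replicative helicase, fell from 71.3, 73.1 and 67.0 TPM to 54.9, 59.2 and 50.7 TPM, a log2 fold change of -0.36 ± 0.06 (adjusted p 0.0232). All deprived libraries were below all controls in these 3 genes. Voom called 3 of the list lower, and the fits without 1 library called between 0 and 2.

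Other called genes of cell division lay outside the list. Prc1, a protein of the spindle midzone, fell from 9.68, 10.3 and 9.28 TPM to 5.55, 6.27 and 5.80 TPM (log2 fold change -0.65 ± 0.12, adjusted p 0.0396). Cdca3, a cell division cycle gene, fell from 6.52, 7.36 and 5.44 TPM to 3.03, 2.27 and 3.10 TPM (log2 fold change -0.97 ± 0.14, adjusted p 0.0068). Fam111a, a protease that acts at replication forks, fell from 12.7, 14.2 and 13.5 TPM to 7.82, 7.49 and 9.44 TPM (log2 fold change -0.65 ± 0.11, adjusted p 0.0135). Fam111a overlaps A330040F15Rik on the opposite strand. These levels are low, and 1 library could end most of the calls: Cdca3 lost it without control replicate 2 (adjusted p 0.0502), Mcm7 and Fam111a in 4 of the 6 such fits, Top2a in 5, and Prc1 and Aurka in all 6, with adjusted p up to 0.199. Aurka also lost its call under 5 of the 7 other settings, voom among them.

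The secreted proteins Wfdc2 and Dcn were lower too. Wfdc2, a small secreted protein with whey acidic protein domains, fell from 305, 316 and 322 TPM in control to 235, 221 and 227 TPM in deprived cells. The log2 fold change was -0.46 ± 0.05 with an adjusted p of 0.000733, and the call was kept in all 13 of the other fits. Dcn, the matrix proteoglycan decorin and a marker of stellate cells and fibroblasts, fell from 19.3, 18.1 and 18.7 TPM to 9.96, 8.49 and 11.7 TPM, a log2 fold change of -0.84 ± 0.16 (adjusted p 0.0337). The Dcn call was lost in 5 of the 6 fits without 1 library, the exception being deprived replicate 3, with adjusted p up to 0.148.

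Summed levels of several other cell types' markers were lower in deprived cells as well. The 12 stellate cell and fibroblast markers, Dcn among them, summed to 45.0 to 49.9 TPM in control and 29.2 to 34.2 TPM in deprived Ad-Cre libraries. Of these 12, 7 were under 1 TPM in all 6 libraries. The mean level of Dcn itself went from 18.7 to 10.1 TPM, so that sum is not separate from the fall of Dcn. Of the 5 tested, Dcn was the only one called, 2 were lower at an unadjusted p under 0.05 and all 5 had a negative sign. The 12 endothelial markers summed to 25.6 to 28.9 TPM against 18.8 to 24.2 TPM, with 0 of 8 called, 4 lower at an unadjusted p under 0.05 and 0 called by voom. Cholangiocyte and progenitor markers summed to 1207 to 1414 TPM against 959.7 to 1069 TPM, with 0 of 7 called, 1 lower at an unadjusted p under 0.05 and 0 called by voom. Most of that sum was Spp1, osteopontin, at 918, 966 and 802 TPM in control and 589.7, 645 and 559.6 TPM in deprived cells, a log2 difference of -0.58 ± 0.27 (adjusted p 0.525). Cldn4 went the other way, at 271, 286 and 273 TPM in control and 310, 301 and 294 TPM in deprived cells. Its log2 difference was 0.13 ± 0.08 (adjusted p 0.669), and the groups did not overlap. Of the 7 tested, 5 were negative and 2 positive. The part of these cells in the fall of Dcn and of the cell cycle genes was not tested. In bulk RNA fewer cells of a type and less RNA per cell cannot be told apart.

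Also in the lower set were Nupr1, Slfn2, Meis3 and a pair of microRNA hairpins. Nupr1, a stress-induced nuclear protein, fell from 33.6, 29.2 and 28.0 TPM to 18.8, 18.7 and 21.6 TPM, a log2 fold change of -0.60 ± 0.11 (adjusted p 0.0231). It was the only called member of the 25 integrated stress response genes tested, of which 1 was higher and 2 lower at an unadjusted p under 0.05, and voom called 0. Slfn2, of the schlafen family, fell from 9.40, 9.26 and 8.52 TPM to 4.98, 5.07 and 4.14 TPM, a log2 fold change of -0.82 ± 0.13 (adjusted p 0.0107). Meis3, a homeobox factor, stood at 2.37, 2.74 and 2.42 TPM and 0.949, 0.658 and 0.620 TPM, a log2 fold change of -1.01 ± 0.18 (adjusted p 0.0217), and voom did not call it. Each of these 3 lost its call in at least 4 of the 6 fits without 1 library, with adjusted p up to 0.139. The microRNA hairpins Mir568 and Mir8112 were called on 2, 1 and 3 reads and on 1, 1 and 1 read in the control libraries, against 0 reads in every deprived library. So few reads give no fold change, the voom adjusted p was 0.417 and 0.654, and Mir8112 lies within Krcc1 on the same strand, which stood above 80 TPM throughout.

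AhR target genes outside the Ugt1a locus gave no call. Of the 16 genes listed, 8 were tested, and the 2 called ones are Ugt1a6a and Ugt1a6b, which share their reads. The remaining 6 had log2 differences between -0.21 and -0.02, all below 0 and none at an unadjusted p under 0.05. Ugt1a6b rose by 0.81 ± 0.06 with Ad-Cont, and the difference of the effects, -0.25 ± 0.09, did not pass (adjusted p 0.273). Between the viruses, Ugt1a6b differed by -0.25 ± 0.06 in control medium (adjusted p 0.365) and by -0.50 ± 0.06 in deprived medium (adjusted p 0.00142), Ad-Cre against Ad-Cont. Tiparp, an AhR-induced ADP-ribosyltransferase, was at 11.3, 10.0 and 8.29 TPM in control and 8.71, 9.10 and 8.24 TPM in deprived cells, a log2 difference of -0.16 ± 0.13 (adjusted p 0.747). Cyp1a2, a P450 of drug and oestrogen oxidation, was at 7.17, 7.25 and 4.09 TPM and 6.29, 4.96 and 5.52 TPM, a log2 difference of -0.09 ± 0.20 (adjusted p 0.922). Nqo1, a flavin-dependent quinone reductase, was at 4.32, 4.70 and 5.68 TPM and 5.24, 4.6 and 3.88 TPM, a log2 difference of -0.08 ± 0.18 (adjusted p 0.921). The groups overlapped in all 3 genes. Slc7a5, an amino acid carrier, differed by -0.21 ± 0.14 (adjusted p 0.687), Gsta1, a glutathione transferase, by -0.03 ± 0.11 (adjusted p 0.957), and Nfe2l2, which encodes NRF2, by -0.02 ± 0.05 (adjusted p 0.947). Cyp1a1, the classical AhR target, reached at most 0.208 TPM in the Ad-Cre libraries, Cyp1b1 0.169 TPM and Ahrr, the AhR repressor, 0.116 TPM, and these fell below the filter. The AhR pathway list of receptor, partners and chaperones had 0 of 7 called, 0 at an unadjusted p under 0.05 and 0 by voom.

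Genes that handle the vitamin itself gave no call either. All 9 genes of riboflavin transport and flavin synthesis were tested, with 0 past the threshold, 0 at an unadjusted p under 0.05 and 0 called by voom. Slc52a2, a riboflavin carrier of the plasma membrane, was at 5.08, 8.15 and 7.71 TPM in control and 9.27, 9.09 and 7.79 TPM in deprived cells, a log2 difference of 0.30 ± 0.15 (adjusted p 0.527), and Slc52a3, another such carrier, differed by 0.07 ± 0.19 (adjusted p 0.937). Rfk, riboflavin kinase, was at 33.4, 34.7 and 33.4 TPM and 35.8, 32.0 and 34.4 TPM, a log2 difference of 0.01 ± 0.07 (adjusted p 0.98). Flad1, FAD synthase, was at 9.58, 7.19 and 8.90 TPM and 8.28, 7.61 and 7.65 TPM, a log2 difference of -0.10 ± 0.11 (adjusted p 0.815). The groups overlapped in each of these genes. Slc25a32, the mitochondrial FAD carrier, differed by 0.18 ± 0.20, the ectonucleotidases Enpp1 and Enpp3 by -0.28 ± 0.19 and 0.09 ± 0.14, and the phosphatases Acp5 and Acp6 by -0.07 ± 0.07 and 0.02 ± 0.08, with adjusted p of at least 0.661.

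Enzymes that use FAD or FMN gave no call. Of 17 acyl-CoA dehydrogenases and electron transfer flavoprotein genes, 0 were called, 3 were higher and 0 lower at an unadjusted p under 0.05, and the median log2 fold change was 0.06. Etfb, a subunit of the electron transfer flavoprotein, differed by 0.02 ± 0.06 (adjusted p 0.947), and Acadl, the long-chain enzyme, by -0.02 ± 0.07 (adjusted p 0.961). Of 52 other flavoenzymes tested, 0 were called, 2 were higher and 0 lower at an unadjusted p under 0.05, and the median was 0.07. Cyb5r3, a cytochrome b5 reductase, differed by -0.01 ± 0.06 (adjusted p 0.97), and Qsox1, a sulfhydryl oxidase, by 0.08 ± 0.06 (adjusted p 0.697). Voom called 0 of the acyl-CoA dehydrogenases and 1 of the other flavoenzymes. Among 43 genes of the respiratory chain 0 were called, 2 were higher and 1 lower at an unadjusted p under 0.05, and voom called 0. The kynurenine pathway turns tryptophan into AhR ligands and NAD, and its list also holds Nnmt, which methylates nicotinamide. Of the 14 genes tested, 0 were called, 3 were higher and 0 lower at an unadjusted p under 0.05, and voom called 0. Nnmt and Tdo2, those with the highest mean TPM, differed by 0.01 ± 0.10 (adjusted p 0.982) and 0.40 ± 0.12 (adjusted p 0.219).

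Inflammatory and hypoxia genes gave no call with Ad-Cre. Of 19 chemokine and NF-kB feedback genes, 0 passed, 0 were higher and 8 lower at an unadjusted p under 0.05, and voom called 3 lower. Ccl2, a monocyte chemokine, was at 721, 779.6 and 775 TPM in control and 502, 577 and 546 TPM in deprived cells, a log2 difference of -0.49 ± 0.20 (adjusted p 0.439). Lcn2, lipocalin 2, was at 423, 440.3 and 489.9 TPM and 297, 303 and 316 TPM, a log2 difference of -0.56 ± 0.12 (adjusted p 0.0904). In both genes the deprived libraries lay below the controls without overlap. Of 21 interferon-stimulated genes 0 passed, 2 were higher and 0 lower at an unadjusted p under 0.05, and voom called 0. Of 19 glycolysis and hypoxia genes 0 passed, 4 were higher and 0 lower at an unadjusted p under 0.05, and voom called 0. Ldha, lactate dehydrogenase A, differed by 0.36 ± 0.10 (adjusted p 0.174), and Aldoa, aldolase A, by 0.14 ± 0.09 (adjusted p 0.626).

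Several further lists gave no call. Of 24 genes of the urea cycle and amino acid breakdown, 4 were higher and 0 lower at an unadjusted p under 0.05, 21 were positive, and the median log2 fold change was 0.14. Of 17 genes of bile acid synthesis and transport, 5 were higher and 0 lower on that measure, with Abcb4, the phospholipid exporter of bile, at 0.46 ± 0.12 (adjusted p 0.183). For endoplasmic reticulum chaperones, 18 in number, 0 were higher and 4 lower, with Hspa5, the chaperone BiP, at -0.06 ± 0.05 (adjusted p 0.734). Of 23 TGF-beta and matrix genes, 0 were higher, 4 were lower and 21 were negative, with S100a6, a calcium-binding protein, at -0.37 ± 0.11 (adjusted p 0.221). Of 17 immediate early genes, 0 were higher and 5 lower, with Ier3 at -0.22 ± 0.05 (adjusted p 0.0807). No member of these 5 lists passed the threshold by limma, and voom called 1 of them, an immediate early gene, lower.

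**Figure D3:**
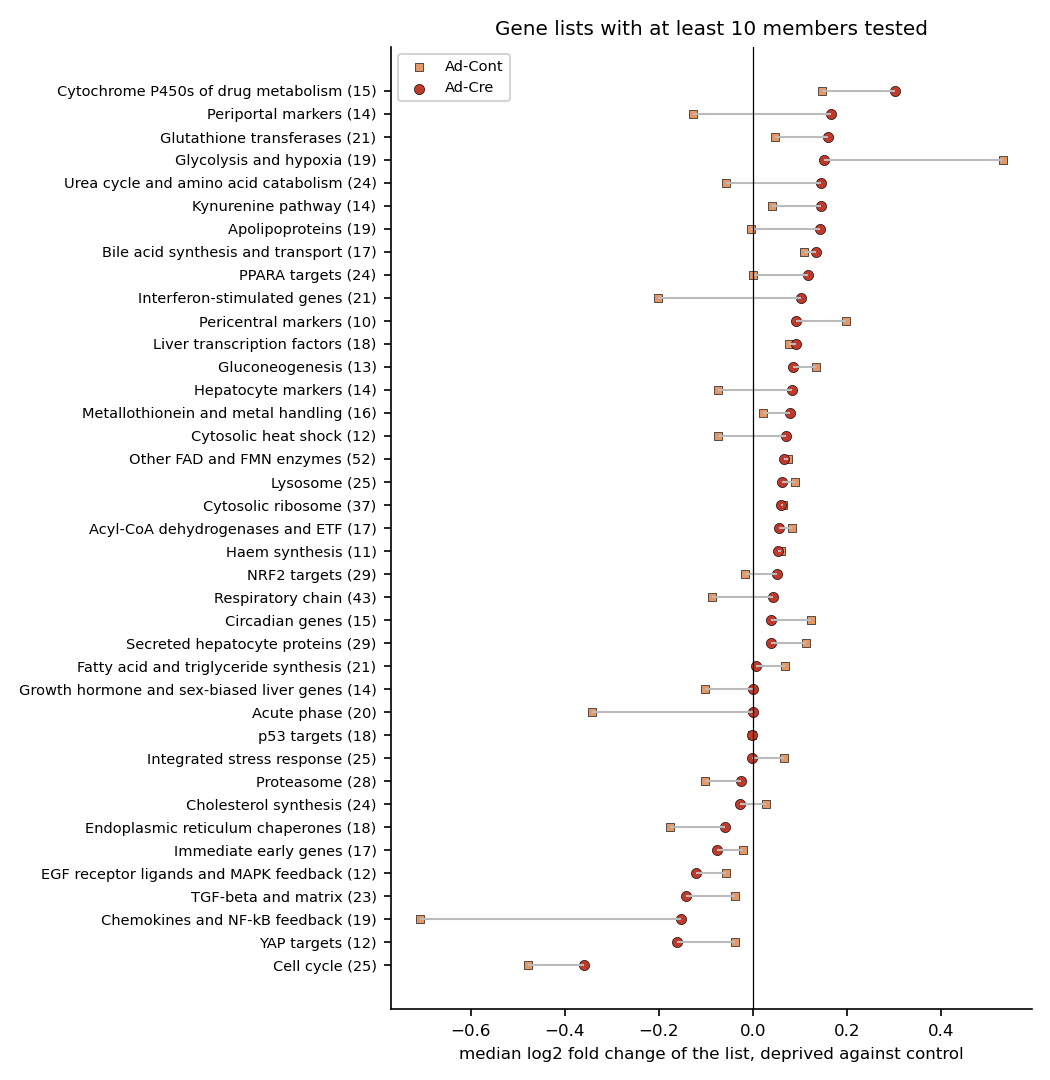
Each row is 1 of the 39 gene lists with at least 10 members tested (number in brackets), and the x axis is the median log2 fold change of its members between deprived and control cells. Circles are Ad-Cre and squares Ad-Cont. With Ad-Cre most medians lie near 0, with cell cycle genes lowest and the P450 list highest, and the widest gaps between the 2 marks are in chemokines, glycolysis and hypoxia, and acute phase genes.

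The same comparison of deprived and control cells with Ad-Cont called far more genes. There, 525 genes were higher (4.32%) and 664 lower (5.46%), 1189 in all (9.78%), by the same model and on libraries other than those of the Ad-Cre comparison. Without deprived Ad-Cont replicate 1 these counts were 459 and 608, and without deprived Ad-Cont replicate 2 they were 291 and 428. The size of the gap depended on the shared estimate of the spread. With only the libraries of each contrast, the higher and lower counts were 335 and 441 with Ad-Cont and 76 and 51 with Ad-Cre. Of the 40 genes called with Ad-Cre, 31 were also called with Ad-Cont in the same direction and 0 in the opposite one, which is 77.5% of the first list and 2.61% of the second. In 27 of those 31 the log2 fold change was smaller in size with Ad-Cre, with medians of 0.58 and 0.84. With the Ugt1a entries counted once, by Ugt1a6b, 24 of 33 (72.7%) were called in both, 20 of the 24 were smaller with Ad-Cre, and the medians were 0.65 and 0.99. Ces1c rose by 1.17 ± 0.08 with Ad-Cont, from 45.3, 47.3 and 46.0 TPM to 112, 109.6 and 94.6 TPM. Wfdc2 fell from 324, 326 and 328 TPM to 157, 148 and 141 TPM with Ad-Cont, a log2 fold change of -1.13 ± 0.05. Urad was 1 of the 4 exceptions, at 0.72 ± 0.20 with Ad-Cont (adjusted p 0.0356) and 1.33 ± 0.20 with Ad-Cre, and their difference of 0.61 ± 0.28 had an adjusted p of 0.377.

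The 9 called with Ad-Cre and not with Ad-Cont were Ap5s1, Rex1bd, Ugt2b5, Gm10030, 1700012D01Rik, Mcm7, Nupr1, Mir8112 and Mir568. Only Mir568, on the reads given above, passed the test of the difference between the effects (adjusted p 0.0458), and the other 8 had adjusted p from 0.0681 to 0.496. For Ap5s1 the difference was 0.69 ± 0.17 (adjusted p 0.114), with 9.09, 9.10 and 9.34 TPM in control and 10.3, 9.79 and 7.14 TPM in deprived cells with Ad-Cont. Of the 525 genes called higher with Ad-Cont, 395 (75.2%) were positive with Ad-Cre, and their median log2 fold change was 0.40 with Ad-Cont and 0.09 with Ad-Cre. Of the 664 called lower, 542 (81.6%) were negative with Ad-Cre, with medians of -0.63 and -0.18. Over all 12155 genes the 2 effects shared a sign in 57.6%. Genes chosen by their size with Ad-Cont are larger there by that choice, so these medians are a description and no test.

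**Figure D4:**
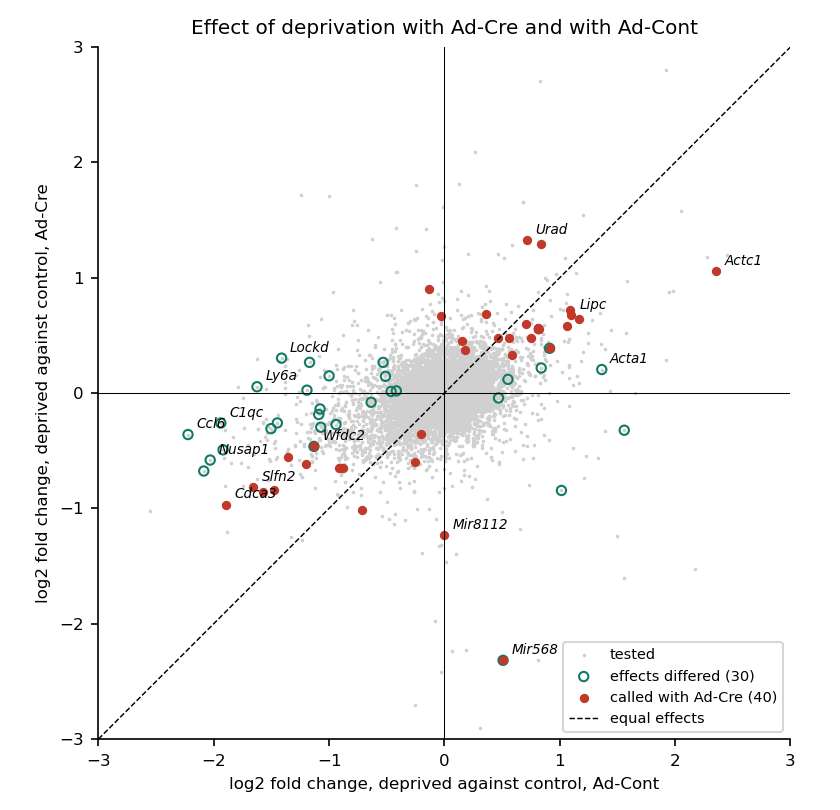
Each point is a gene, with its log2 fold change by deprivation with Ad-Cont on the x axis and with Ad-Cre on the y axis, and the dashed line marks equal effects. Red points are the 40 genes called with Ad-Cre and green rings the 30 whose effects differed. Apart from Mir568, the rings lie nearer to 0 on the Ad-Cre axis than on the Ad-Cont axis, as Ccl6, C1qc and Acta1 do.

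The difference between the effects itself passed for 30 genes (0.247%), of which 22 (0.181%) had a higher effect with Ad-Cre and 8 (0.0658%) a lower one. At an unadjusted p under 0.05 these numbers were 774 and 824, and voom called 94 and 48. In 29 of the 30 the effect was smaller in size with Ad-Cre, and 29 were called with Ad-Cont. The 22 fell with Ad-Cont. Between the viruses, 2 of the 30 genes differed past the threshold in control medium, Cenpa and Gm35612, and 22 did so in deprived medium. Whether past the threshold or not, 19 of the 22 with a higher effect were lower with Ad-Cre than with Ad-Cont in control medium. In deprived medium 22 of the 22 were higher with Ad-Cre. Both directions add to the difference by which these genes were chosen, so these counts are a description and no test. Leaving out control Ad-Cre replicate 3 raised the counts of higher and lower effects to 100 and 79, leaving out deprived Ad-Cont replicate 1 raised them to 111 and 58, and leaving out deprived Ad-Cre replicate 1 lowered them to 10 and 1. There were 10 genes that passed in each of 18 other fits on the same genes: Ccl6, C1qc, Nusap1, Cenpa, Cxcl2, Cdk1, Serpine2, Cxcl1, Wfdc2 and Cd14. The other 20 lost their call in 1 to 12 of these fits, among them Acta1 in 12, C1qa in 10, Lockd in 9 and Ly6a in 6.

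Macrophage and chemokine genes were prominent among the 22. Ccl6, a chemokine of myeloid cells, was at 7.11, 7.97 and 8.64 TPM in control and 6.03, 5.49 and 6.29 TPM in deprived cells with Ad-Cre, against 11.3, 10.4 and 10.3 and 1.18, 2.12 and 1.29 TPM with Ad-Cont. The deprived Ad-Cont libraries alone were far below the rest, and the difference of effects was 1.86 ± 0.19 on the log2 scale (adjusted p 0.0011). C1qc and C1qa, chains of complement C1q made by macrophages, had differences of 1.68 ± 0.23 (adjusted p 0.00506) and 1.43 ± 0.24 (adjusted p 0.023). C1qc was at 13.2, 9.55 and 16.2 and 10.4, 11.0 and 9.91 TPM with Ad-Cre and at 13.5, 9.94 and 12.7 and 2.09, 2.89 and 2.20 TPM with Ad-Cont, control before deprived. Ly6a, a surface protein known as Sca-1, was at 18.1, 23.2 and 18.6 and 19.8, 18.1 and 24.6 TPM with Ad-Cre, where the groups overlapped, and at 19.3, 25.8 and 25.6 and 9.62, 6.34 and 5.34 TPM with Ad-Cont. Its difference was 1.68 ± 0.26 (adjusted p 0.0197).

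Of the 9 Kupffer cell and macrophage markers tested, 4 passed the test of the difference: C1qa, C1qc, Vsig4 and Cd14. Vsig4 was low, with means of 2.02 and 2.63 TPM with Ad-Cre and 1.575 and 0.15 TPM with Ad-Cont, control before deprived. It lost its call in 11 of the 18 other fits. With Ad-Cont 7 of the 9 were called lower and the summed level of all 14 went from 227 to 236 TPM in control to 136 to 219.6 TPM in deprived libraries. Cd68, a lysosomal protein of macrophages, was not called, at 62.2, 77.1 and 67.4 TPM in control and 148, 92.0 and 65.6 TPM in deprived cells with Ad-Cont, a log2 difference of 0.48 ± 0.24 (adjusted p 0.245). With Ad-Cre 0 of the 9 were called, 0 were higher and 3 lower at an unadjusted p under 0.05, and voom called 0. Their median log2 fold change with Ad-Cre was -0.27, with 7 negative and 2 positive. Cd68 was at 55.1, 59.7 and 52.5 TPM in control and 78.4, 72.7 and 85.8 TPM in deprived cells with Ad-Cre, without overlap. The summed level of all 14 markers includes Cd68, so it does not show the direction of most of them. The part of macrophage number in these genes was not tested. Cxcl1, Cxcl2 and Cxcl5, neutrophil chemokines, had differences of 0.78 ± 0.10, 1.20 ± 0.16 and 1.41 ± 0.23 (adjusted p 0.00314, 0.00443 and 0.0197), and 9 of the 19 chemokine and NF-kB genes were called lower with Ad-Cont.

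Of the 20 acute phase genes tested, 4 passed the test of the difference, Orm1 and the fibrinogen chains Fga, Fgb and Fgg. Fgg was at 203, 215 and 257 TPM in control and 284, 247 and 278 TPM in deprived cells with Ad-Cre, and at 286, 291 and 262 and 211, 198 and 172 TPM with Ad-Cont. Its log2 fold changes were 0.27 ± 0.09 (adjusted p 0.306) and -0.53 ± 0.09 (adjusted p 0.00273), with a difference of 0.80 ± 0.13 (adjusted p 0.0197). Of the 25 cell cycle genes tested, Cdk1 alone passed the test of the difference. On the unadjusted measure (p under 0.05), 7 had a higher and 0 a lower effect with Ad-Cre. Over all 12155 genes tested, 774 had a higher and 824 a lower effect on that measure. Nusap1, a spindle protein outside that list, was at 7.56, 9.15 and 7.78 TPM and 4.33, 5.96 and 5.14 TPM with Ad-Cre, and at 15.4, 12.6 and 13.1 and 2.29, 2.57 and 2.93 TPM with Ad-Cont, a difference of 1.45 ± 0.18 (adjusted p 0.00314). In control cells Cenpa differed between the viruses too. Cenpa, the centromeric histone, was at 7.47, 8.23 and 8.92 TPM in control cells with Ad-Cre and 16.3, 14.1 and 14.3 TPM with Ad-Cont, a log2 difference of -0.79 ± 0.11 (adjusted p 0.039). Lockd, a long noncoding RNA next to Cdkn1b, was at 3.48, 4.86 and 3.85 TPM in control and 5.34, 3.71 and 6.99 TPM in deprived cells with Ad-Cre, where the groups overlapped. With Ad-Cont it was at 11.2, 12.0 and 9.62 and 5.01, 3.51 and 2.29 TPM, and the difference was 1.71 ± 0.31 (adjusted p 0.0333). Some lists differed only on the unadjusted measure, with 0 members past the threshold for the difference. Of 21 interferon-stimulated genes, 11 had a higher and 0 a lower effect with Ad-Cre on it. Of 43 respiratory chain genes these numbers were 11 and 0, and of 19 glycolysis and hypoxia genes 0 and 12. With Ad-Cont, 11 of those 19 were called higher and 0 lower.

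Of the 8 genes with a lower effect with Ad-Cre, 5 reached a mean of 10 TPM in at least 1 group, and Acta1, Tpm2 and Dstn of these belong to actin filaments. Acta1, skeletal alpha-actin, was at 14.4, 11.4 and 10.8 and 15.2, 15.1 and 12.2 TPM with Ad-Cre and at 10.5, 12.4 and 10.9 and 23.7, 30.8 and 38.8 TPM with Ad-Cont, a difference of -1.16 ± 0.22 (adjusted p 0.0458). Tpm2 differed by -0.52 ± 0.10 (adjusted p 0.0336), and Dstn, the actin-severing protein destrin, by -0.43 ± 0.07 (adjusted p 0.0197). Camk2n1, an inhibitor of calcium/calmodulin-dependent kinase II, differed by -0.51 ± 0.09 (adjusted p 0.0197), and Endod1, an endonuclease-domain protein, by -0.62 ± 0.10 (adjusted p 0.0197). In Endod1, Camk2n1 and Dstn the deprived Ad-Cont libraries were the highest of the 4 groups. The other 3, Gm35612, Pde6g and Mir568, had means under 10 TPM in every group.

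**Figure D5:**
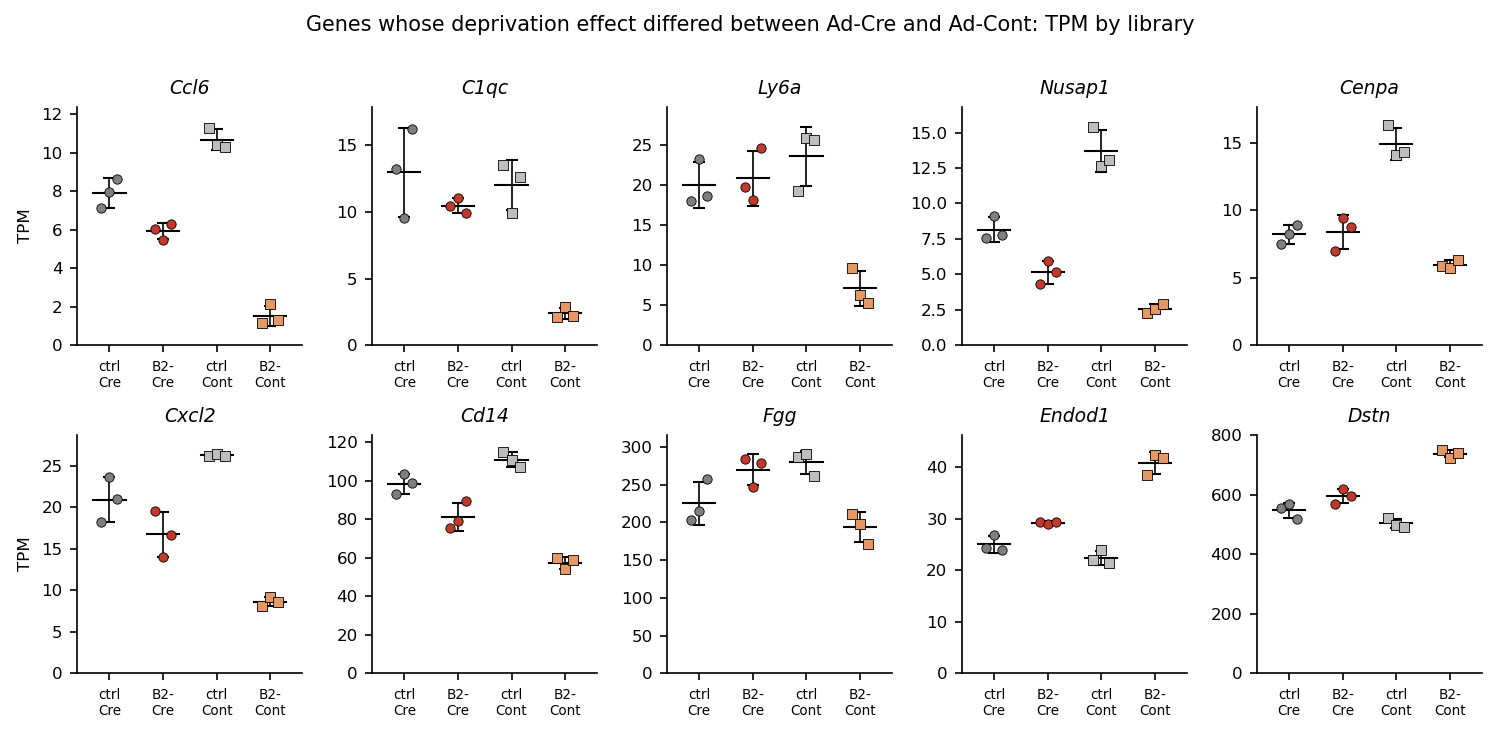
Each panel shows 1 gene whose deprivation effect differed between Ad-Cre and Ad-Cont, with TPM on the y axis (from 0) and the 4 groups on the x axis (ctrl, control medium; B2-, deprived medium; Cre, Ad-Cre; Cont, Ad-Cont). Points are single libraries, the wide bar is the mean of 3 and the whiskers are 1 SD. For Ccl6, C1qc, Cxcl2 and Cd14 the deprived Ad-Cont libraries are the lowest, and for Endod1 and Dstn they are the highest.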

How the data were processed

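RNA from AhR-flox mouse hepatocytes was measured by 3′ mRNA sequencing in 12 libraries. The authors deposited TPM values for 24940 mouse genes, in a table of HOMER's layout per the file headers. Per the submitters' processing notes, the tools were Bowtie2, STAR and HOMER (version and role not given in the sources used here) and the builds mm10 and hg38. The TPM values of the listed genes sum to less than the TPM scale's full total, so other transcripts also entered the scaling. Multiplied by transcript length, all checked values in genes of up to 3000 bases were whole read counts within 0.1 read. The recovered reads gave a depth of 6263500 to 7810000 per library.

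Groups were taken from the labels. TPM was transformed to log2(TPM + 1), and 12155 genes with at least 1 TPM in at least 3 libraries were kept. In R 4.3.3, limma 3.58.1 fitted 4 group means over 12 libraries (moderated, with trend and robust options), with Benjamini-Hochberg adjustment over all 12155 genes and a threshold of 0.05. Fitting all groups gives 1 shared estimate of the spread. Contrasts were deprived against control with Ad-Cre, the same with Ad-Cont, their difference, and Ad-Cre against Ad-Cont in each medium. The steps were also run on simulated data, with the same spread for every gene and library and with changes larger than most of those called here. That run does not show how well smaller changes are recovered. Alternatives were pseudocounts of 0.5 and 5, no filter, a filter of 5 TPM, quantile normalization, median ratio scaling, limma's voom on the recovered reads, a replicate block, only the libraries of a contrast, and leaving out each library. Files were read with pandas 2.3.3 and numpy 2.4.6 under Python 3.11.15, and figures drawn with matplotlib 3.10.9.

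The members and the 47 gene lists were chosen with earlier results of these data known. Genes named are the 10 highest and 10 lowest called with a mean of at least 10 TPM in the higher group, the 6 highest and 6 lowest of the difference by the same measure over 4 groups, Ahr and its targets, riboflavin genes, and per list up to 4 called members or, with none, up to 2 by mean TPM. The other called genes, among the 40 and the 30, are named too, outside that rule and after their values were seen, except 1 gene of the lower set that is not reported here. Reads of near-identical or overlapping genes cannot be separated.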

Additional observations from a re-analysis of the deposited data

Results flagged for a closer look

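The deprivation effect differed between Ad-Cre and Ad-Cont, by limma's test of the difference itself, for 30 genes. Each value here is the log2 fold change with Ad-Cre minus that with Ad-Cont, with its SE. Among macrophage and chemokine genes it was 1.86 ± 0.19 for Ccl6, 1.68 ± 0.23 for C1qc, 1.43 ± 0.24 for C1qa, 1.44 ± 0.25 for Vsig4, 0.67 ± 0.10 for Cd14, 1.41 ± 0.23 for Cxcl5, 1.20 ± 0.16 for Cxcl2 and 0.78 ± 0.10 for Cxcl1. Among genes of cell division it was 1.45 ± 0.18 for Nusap1, 1.22 ± 0.16 for Cenpa, 1.19 ± 0.16 for Cdk1 and 0.56 ± 0.10 for Cks1b. Among acute phase genes it was 0.94 ± 0.15 for Orm1, 0.80 ± 0.13 for Fgg, 0.66 ± 0.12 for Fga and 0.48 ± 0.09 for Fgb. Other positive values were 1.71 ± 0.31 for Lockd, 1.68 ± 0.26 for Ly6a, 1.15 ± 0.19 for Crip1, 0.90 ± 0.11 for Serpine2, 0.67 ± 0.07 for Wfdc2 and 0.44 ± 0.08 for Manf. Negative values were -0.43 ± 0.07 for Dstn, -0.51 ± 0.09 for Camk2n1, -0.52 ± 0.10 for Tpm2, -0.62 ± 0.10 for Endod1, -1.16 ± 0.22 for Acta1, -1.86 ± 0.33 for Pde6g, -1.88 ± 0.28 for Gm35612 and -2.83 ± 0.53 for Mir568. The last 3 and Vsig4 rest on levels below 10 TPM in every group, and Mir568 was read in no deprived Ad-Cre library.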

How the results depend on the processing

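Of the 40 genes called with Ad-Cre, 27 kept their call under all 7 other settings that use every library of the contrast and the same genes, and 14 also kept it without each of the 6 libraries. None of the 40 changed direction in these fits. The counts of higher and lower genes, 26 and 14, became 17 and 9 with no filter on low values (20116 genes tested), 54 and 58 by voom, and 76 and 51 with the 6 Ad-Cre libraries alone. They ranged from 13 to 23 and from 3 to 10 when 1 library was left out. With Ad-Cont, 525 and 664 became 335 and 441 with its 6 libraries alone, and ranged from 291 to 459 and from 416 to 651 without 1 library. For the difference of effects, 22 and 8 became 11 and 5 with no filter, 39 and 13 with a filter of 5 TPM, and 94 and 48 by voom, and ranged from 10 to 111 and from 1 to 79 without 1 library. The cause of these changes was not tested. Ahr in deprived medium (Ad-Cre against Ad-Cont, -0.47 ± 0.09) missed the threshold with only the libraries of that contrast, at -0.47 (adjusted p 0.0829), and ranged from -0.51 to -0.44 without 1 library.

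The labels number replicates 1 to 3 in each group. Deviations of the same-numbered Ad-Cre libraries had correlations of 0.01, 0.07 and 0.04, so the numbers were not taken to pair the samples, and not every library correlated best with its own number. With the replicate block, 27 genes were higher and 17 lower with Ad-Cre, 32 of them shared with the 40, 499 and 648 with Ad-Cont, and 29 and 14 for the difference of effects. Median ratio scaling moved the median of all genes with Ad-Cre from -0.01 to 0.00025 on the log2 scale. With 3 libraries a group, a single library decided many calls, and genes below about 1 TPM rest on few reads. Of 84 named genes that did not pass, 9 passed under at least 1 setting.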
